A study of Homo sapiens with 6 samples.

Results

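The NF-kappaB genes followed here are 10 of the 17081 gene symbols in the count table, and each symbol had 1 row. They are the subunit genes NFKB1, NFKB2 and RELB, the feedback inhibitors NFKBIA and TNFAIP3, the ubiquitin ligase genes BIRC3 and BIRC2, the adhesion molecule ICAM1 and the chemokines CCL2 and CX3CL1. They were chosen by the wide spread of BIRC3 and ICAM1 levels among libraries of the same group, so that spread is described here and not tested. The tissue was tumour of DMS114, a human line established from small cell lung cancer, taken from a sciatic nerve invasion model. There were 3 libraries from the distal invaded region and 3 from the proximal one, all untreated as far as the labels say. Every library therefore comes from 1 cell line, and the labels name neither the host animal nor how many animals gave the replicates. The p-values therefore measure only the spread between samples, and that spread may be technical.

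NF-kappaB is a family of dimeric transcription factors held in the cytoplasm by inhibitor proteins until a receptor of the tumour necrosis factor or interleukin-1 type activates the kinases that have the inhibitor destroyed. Many of its targets are its own regulators, so that NFKBIA and TNFAIP3 shut the response down again, while others are adhesion molecules, chemokines and survival genes. A second, slower branch processes the NFKB2 precursor into a partner of RELB. BIRC2 and BIRC3 bind receptor complexes through TRAF2, serve as ubiquitin ligases in the first branch and hold down the kinase MAP3K14 that drives the second.

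The stretches before annotated starts that hold a short kappaB-like motif are shown because most of these genes are known to be controlled by their own factor. BIRC3 and its neighbour BIRC2 differ in the motif, and its part in their levels was not tested. The motif searched was GGNNNTTCC on both strands, within 250 bases before each annotated start in RefSeq, build GRCh38.p14. Of the 10 genes, 7 matched an entry of that table, with 11 windows in all. Exons of the same gene in GENCODE cover all 250 bases of the ICAM1 window and of the NFKB2 window shown, and part of most others. The TNFAIP3 window lies inside the gene, before a later start. The motif was in 7 of the 11 windows, beside 17.1% of 35114 windows of this length over the genome. By gene, it was in at least 1 window of 6 genes and in none of the 2 windows of BIRC2. Genes with more windows had more places for a match. A 10-base kappaB consensus was searched as well, and 9.96% of the windows over the genome held it. It matched at 2 places in the BIRC3 window but at 0 in the ICAM1 window and in the BIRC2 windows. TNFAIP3, NFKBIA, NFKB1 and NFKB2 each held it in at least 1 window. The ICAM1 match thus depends on the motif chosen. In the lines that follow, capitals mark GGNNNTTCC on either strand, and each stretch runs 5′ to 3′ on the gene's own strand. A match is a description of the letters only.
BIRC3, chr11:102317275-102317304, plus strand: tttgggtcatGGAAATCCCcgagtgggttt
ICAM1, chr19:10270924-10270953, plus strand: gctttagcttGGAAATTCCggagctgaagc
NFKBIA, chr14:35404811-35404840, minus strand: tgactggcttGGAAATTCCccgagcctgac
TNFAIP3, chr6:137867188-137867217, plus strand: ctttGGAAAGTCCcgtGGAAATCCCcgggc
NFKB1, chr4:102501301-102501330, plus strand: gacgtcagtgGGAATTTCCagccaggaagt
NFKB2, chr10:102394491-102394520, plus strand: ggccgagaagGGGCTTTCCcggccctgagc

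BIRC3 (chromosome 11, 102317484 to 102339403) and BIRC2 (102347214 to 102378670) are paralogues that lie next to each other, with 7810 bases between them. Both stretches below run from base 250 to base 51 before the gene's start, and they are shown side by side for that reason. The BIRC3 stretch holds GGNNNTTCC once and the BIRC2 stretch does not hold it.
BIRC3, chr11:102317234-102317433, plus strand: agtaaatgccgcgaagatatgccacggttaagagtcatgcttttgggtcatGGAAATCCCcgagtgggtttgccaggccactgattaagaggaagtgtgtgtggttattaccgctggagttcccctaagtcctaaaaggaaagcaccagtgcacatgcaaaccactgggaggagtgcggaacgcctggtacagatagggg
BIRC2, chr11:102346964-102347163, plus strand: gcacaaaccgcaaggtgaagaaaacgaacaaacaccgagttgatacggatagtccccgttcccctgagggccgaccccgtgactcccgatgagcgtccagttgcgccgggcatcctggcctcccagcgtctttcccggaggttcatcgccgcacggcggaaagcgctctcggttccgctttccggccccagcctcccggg

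The libraries held 16171106 to 26116191 counts, with the fewest in distal 3. That library also stood apart in its muscle reads. The 22 skeletal muscle markers summed to 50.0, 78.9 and 2830 CPM (counts scaled to library size) in distal 1, 2 and 3, against 51.4, 82.0 and 439 in proximal 1, 2 and 3, with MYH1 and MYH7 at 0 reads in distal 1. Small cell lung cancer markers summed to 393 to 445 CPM in the distal libraries and 394 to 405 in the proximal ones, but NEUROD1, POU2F3 and KRT8 did not pass the filter on low counts. In bulk tissue fewer cells of a type and less RNA per cell cannot be told apart.

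Of the 10 genes, 9 passed the filter on low counts, and for none of them was a difference between distal and proximal tumour detected. By edgeR's quasi-likelihood test 0 of the 9 passed an adjusted p of 0.05, beside 0% of 13382 genes tested, and 0 had an unadjusted p under 0.05, beside 1.33% of all genes. DESeq2 and limma-voom also called 0 of the 9, none with an unadjusted p under 0.05. The distal and proximal libraries overlapped for each of the 9, while they did not overlap for 6.28% of all genes. The 3 distal libraries spanned 0.70 to 2.68 on the log2 scale over the 9 genes, and the group differences were -0.42 to 0.46. The lowest library was distal 3 for 8 of the 9, beside 25.4% of all genes, and the range over the 6 libraries was above 1 on the log2 scale (2-fold) for 7 of the 9, beside 16.9%. Without distal 3 that range was above 1 for 3 of the 9, ICAM1, BIRC3 and CCL2, beside 11.7% of all genes. The genes were chosen around the spread of BIRC3 and ICAM1, so these counts by range follow in part from that choice. Muscle reads were highest in distal 3, and their part in these levels was not tested.

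BIRC3 had 402, 268 and 64.3 CPM in distal 1, 2 and 3, against 292, 103 and 190 CPM in proximal 1, 2 and 3. CPM of single genes were scaled by edgeR's TMM method. The lowest library, distal 3, thus stood beside the highest, distal 1, in the same group, and the other low value was that of proximal 2. The ratio of the highest to the lowest library was 6.26 among the distal and 2.85 among the proximal libraries. These differences are beyond counting error, since BIRC3 had 1053 to 9135 reads and the exact 95% Poisson intervals of the 6 libraries did not overlap, with 60.5 to 68.3 CPM in distal 3 and 98.3 to 107 CPM in proximal 2. Its means were 245 ± 170 CPM in distal and 195 ± 94.7 CPM in proximal tumour (SD, n = 3 each). Distal minus proximal, the log2 fold change was 0.33 (SE 0.81), with a 95% interval from -1.88 to 2.54 and an adjusted p of 0.9997 by edgeR's quasi-likelihood test. Without distal 1 it was -0.23, without distal 3 it was 0.78, and without proximal 2 it was 0.03.

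ICAM1 (chromosome 19, 10271120 to 10286615), the receptor by which leukocytes attach to activated endothelium and to tumour cells, had 102, 51.7 and 15.9 CPM in distal 1, 2 and 3, against 55.0, 13.0 and 55.9 CPM in proximal 1, 2 and 3. Again distal 1 was the highest library, and distal 3 and proximal 2 the low ones. The lowest of all was here proximal 2, at 281 reads, with distal 3 at 260 reads from a smaller library. The Poisson interval of 14.0 to 17.9 CPM in distal 3 overlapped the one of 11.5 to 14.6 CPM in proximal 2, so counting error does not order them. The ratio of the highest to the lowest library was 6.43 among the distal and 4.31 among the proximal libraries. ICAM1 averaged 56.5 ± 43.3 CPM in distal and 41.3 ± 24.5 CPM in proximal tumour (SD, n = 3 each). Distal minus proximal, the log2 fold change was 0.46 (SE 0.93, 95% interval -2.06 to 2.97), with an adjusted p of 0.9997 by edgeR's quasi-likelihood test. It was -0.28 without distal 1, 0.89 without distal 3 and 0.03 without proximal 2. The lncRNA genes ICAM4-AS1 and LIMASI overlap ICAM1 in RefSeq, and the strand setting of the counting is not given in the sources used here, so reads of them could be part of its count.

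ICAM1 is also a gene of endothelium and leukocytes, and markers of both were near 0. The 10 endothelial markers in the table summed to 1.69 to 4.14 CPM in the distal and 1.01 to 2.58 in the proximal libraries, and PECAM1 had at most 1 read in any library. The 16 leukocyte markers in the table summed to 3.34 to 7.98 CPM in the distal and 2.61 to 7.89 in the proximal libraries. The leukocyte sum was highest in distal 3 (7.98), where ICAM1 was low, and nearly as high in proximal 3 (7.89), where ICAM1 was among the higher values, and it was lowest in proximal 2 (2.61), where ICAM1 was lowest. The part of these cells in the ICAM1 level was not tested. How reads of host tissue were handled is not given in the sources used here, so such reads could be part of a count where they align to human genes.

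**Figure D1:**
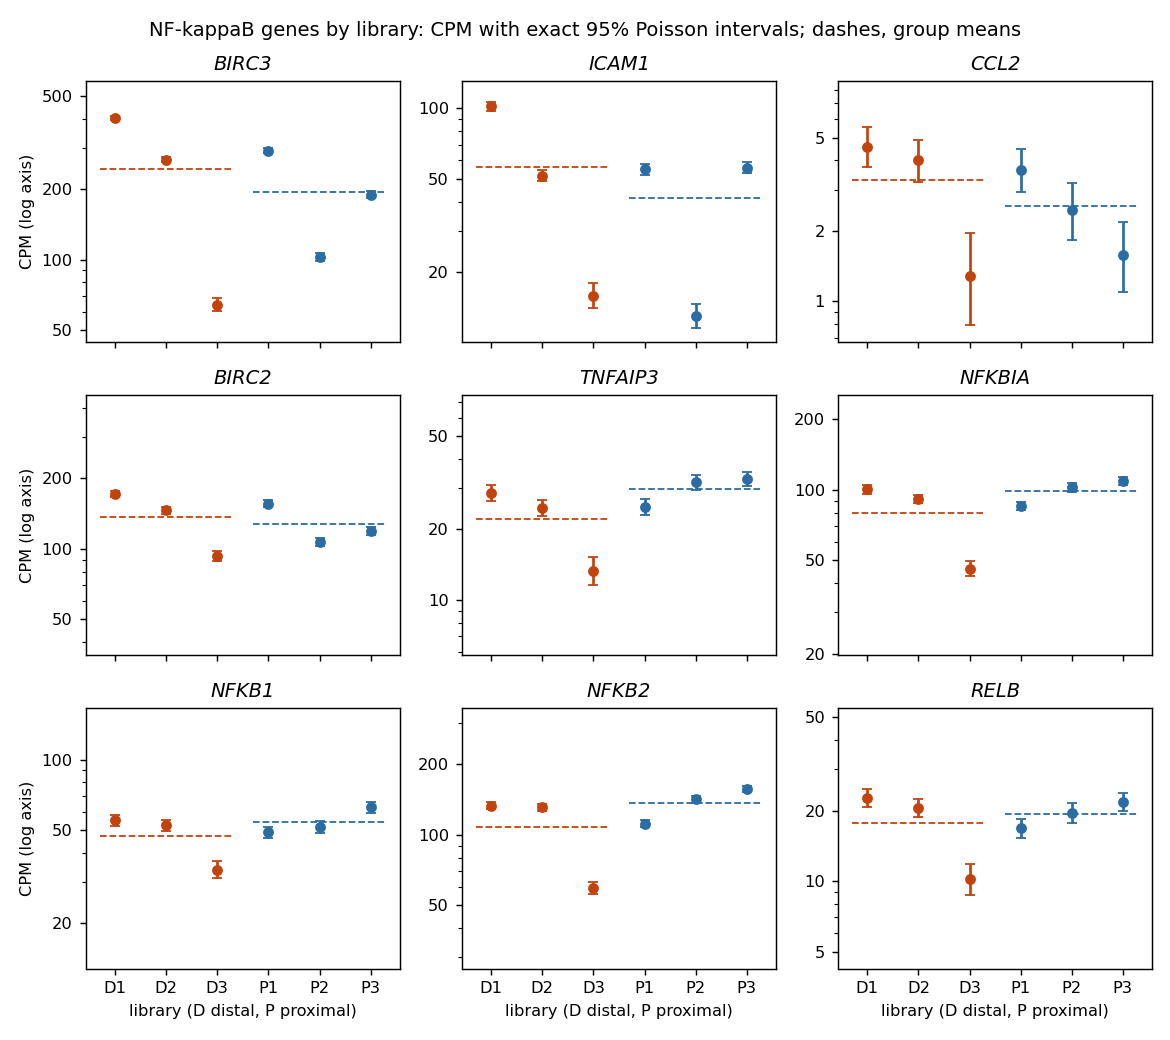
CPM (log axis) of 9 NF-kappaB genes in each distal (D, left) and proximal (P, right) library, with exact 95% Poisson intervals as bars and group means as dashed lines. BIRC3 and ICAM1 were low in both D3 and P2, whereas NFKBIA, TNFAIP3, NFKB1, NFKB2 and RELB were low in D3 and had similar levels in the other 5 libraries.

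BIRC2, the paralogue next door, had 172, 146 and 93.2 CPM in distal 1, 2 and 3, against 156, 107 and 119 CPM in proximal 1, 2 and 3. The order of the libraries was that of BIRC3, with distal 1 highest, distal 3 lowest and proximal 2 next to it, and the ratio of the highest to the lowest was 1.84, compared with 6.26 for BIRC3. Distal over proximal, BIRC2 had a log2 fold change of 0.11 (SE 0.26), with an adjusted p of 0.9997 by edgeR's quasi-likelihood test and a 95% interval from -0.53 to 0.74. Of the other genes of this stretch of chromosome 11, 7 were tested. DYNC2H1, a dynein heavy chain of cilia, was lowest in distal 3 too, with 83.4, 96.0 and 60.6 CPM in the distal and 100.2, 120 and 85.8 CPM in the proximal libraries, a range of 0.98 on the log2 scale, but it was highest in proximal 2. YAP1, the Hippo pathway coactivator, had 184, 180 and 167 CPM in the distal and 177, 168 and 187 CPM in the proximal libraries, a range of 0.16 on the log2 scale. TMEM123, a membrane protein gene, had a range of 0.64 and MMP10, a matrix metalloproteinase, one of 1.77, with 42.3 CPM in distal 3, its second highest library, and 13.5 CPM in proximal 2, its lowest.

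CCL2 (chromosome 17, 34255285 to 34257203), a chemokine that attracts monocytes, was read at a low level, at 4.58, 4.00 and 1.28 CPM in distal 1, 2 and 3, against 3.64, 2.45 and 1.57 CPM in proximal 1, 2 and 3. Distal 1 was the highest library and distal 3 the lowest, as for BIRC3, but proximal 3 was second lowest. With 21 to 104 reads, counting error is wide, and the interval of 0.794 to 1.96 CPM in distal 3 overlapped that of 1.095 to 2.19 CPM in proximal 3. The log2 fold change of CCL2 was 0.37 (SE 0.47, 95% interval -0.70 to 1.44, adjusted p 0.9997 by edgeR's quasi-likelihood test), with 0.74 without distal 3 and 0.06 without distal 1. CX3CL1, a membrane-bound chemokine that draws T cells and monocytes, had 0 reads in each distal library and 1, 0 and 0 reads in proximal 1, 2 and 3. A count of 0 allows up to 3 reads, or 0.124 to 0.183 CPM in the distal libraries, so the gene was not detectable at this depth and was not tested.

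The feedback inhibitors had another order of libraries. NFKBIA, which encodes the inhibitor that holds NF-kappaB in the cytoplasm (chromosome 14, 35401513 to 35404749), had 100.6, 91.4 and 46.2 CPM in distal 1, 2 and 3, against 85.4, 103 and 109 CPM in proximal 1, 2 and 3. It was low in distal 3 alone, and proximal 2, where BIRC3 and ICAM1 were low, was its second highest library. TNFAIP3, the ubiquitin-editing enzyme A20 that ends signalling from the receptors (chromosome 6, 137866349 to 137883312), had 28.7, 24.8 and 13.3 CPM in distal 1, 2 and 3, against 24.9, 31.9 and 32.9 CPM in proximal 1, 2 and 3. Its libraries stood in nearly the same order. The log2 fold change of NFKBIA was -0.32 (SE 0.30, 95% interval -1.07 to 0.44) and that of TNFAIP3 -0.42 (SE 0.28, 95% interval -1.08 to 0.24), each with an adjusted p of 0.9997 by edgeR's quasi-likelihood test. Without distal 3 they were -0.04 and -0.16. The lncRNA gene WAKMAR2 overlaps TNFAIP3 in RefSeq and could share its reads.

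Of the subunits, NFKB2 (chromosome 10, 102394110 to 102402529) had 134, 131 and 59.4 CPM in distal 1, 2 and 3, against 112, 142 and 157 CPM in proximal 1, 2 and 3. RELB (chromosome 19, 45001464 to 45038192), the partner of its processed form, had 22.7, 20.5 and 10.2 CPM in the distal against 16.8, 19.6 and 21.7 CPM in the proximal libraries. NFKB1 (chromosome 4, 102501359 to 102617302), the precursor of the common partner of RELA, had 55.0, 52.4 and 33.95 CPM in the distal against 48.9, 51.8 and 62.5 CPM in the proximal libraries. All 3 were lowest in distal 3, by a ratio to their highest library of 2.65 for NFKB2, 2.22 for RELB and 1.84 for NFKB1, and none was low in proximal 2. Their log2 fold changes were -0.34 (SE 0.35), -0.12 (SE 0.28) and -0.20 (SE 0.18) in that order, each with an adjusted p of 0.9997 by edgeR's quasi-likelihood test, and -0.05, 0.16 and -0.02 without distal 3. The lncRNA NFKB1-AS1 overlaps NFKB1 in RefSeq. RELA, the main activating subunit, had 75.3, 81.7 and 72.1 CPM in the distal and 75.5, 75.2 and 85.5 CPM in the proximal libraries, a range of 0.25 on the log2 scale, and its level in distal 3 was close to that in the other libraries.

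**Figure D2:**
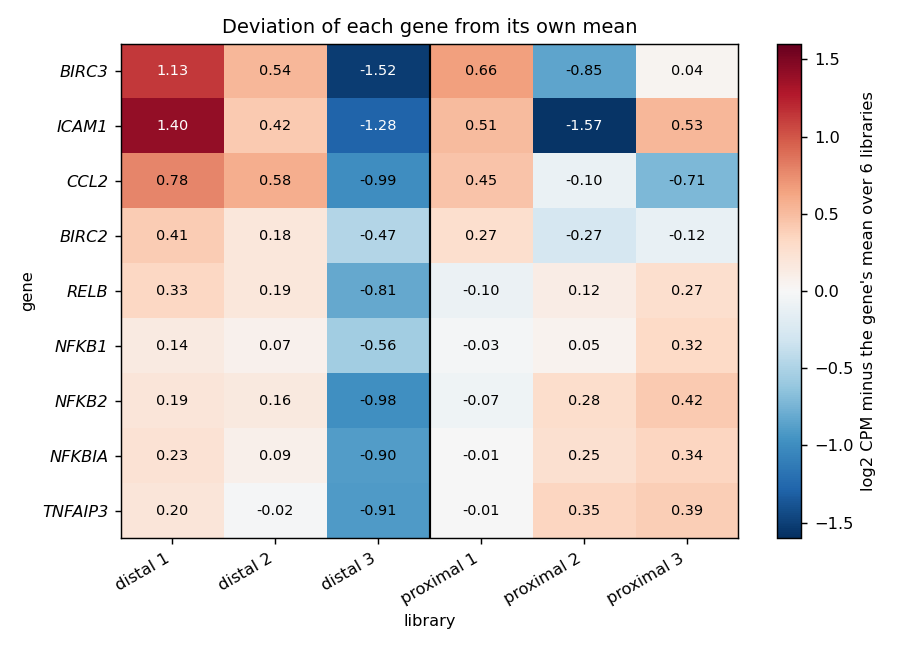
Log2 CPM of each gene minus its own mean over the 6 libraries (colour scale and printed values), with the 3 distal libraries left of the line and the 3 proximal ones right of it. The lower 5 genes deviate downward in distal 3, by -0.56 to -0.98, and by at most 0.42 upward elsewhere, whereas BIRC3 and ICAM1 also lie at -0.85 and -1.57 in proximal 2 and at 1.13 and 1.40 in distal 1.

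Laid over one another, the profiles formed a tight set of inhibitors and subunits and a loose pair of BIRC3 and ICAM1. Each profile was log2 CPM centred on the gene's own mean, and likeness was the mean absolute difference between 2 profiles over the 6 libraries. Among NFKBIA, TNFAIP3, NFKB2, RELB and NFKB1 this difference was 0.0484 to 0.155. Between these 5 and BIRC3 or ICAM1 it was 0.635 to 0.783, and between BIRC3 and ICAM1 it was 0.333. Without distal 3 the same differences were 0.0518 to 0.151, 0.593 to 0.796 and 0.342. Among 13381 genes ranked by likeness to NFKBIA, TNFAIP3 stood at 2, NFKB2 at 4, RELB at 11 and NFKB1 at 24, while BIRC2 stood at 6491, CCL2 at 11699, BIRC3 at 12657 and ICAM1 at 12826. Without distal 3 the ranks were lower, with NFKB2 at 167, TNFAIP3 at 226, NFKB1 at 301 and RELB at 1848, although the differences among the 5 genes were of the same size. The measure is not scaled for spread, so a gene of wide range differs from NFKBIA even with the same order of libraries. BIRC3 and ICAM1 were chosen for wide spread, so their distance from the 5 genes and their ranks follow in part from that choice. BIRC2, with its libraries in the order of BIRC3, differed by 0.541 from BIRC3 and by 0.329 from NFKBIA. These likenesses describe 6 libraries and say nothing of shared control.

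**Figure D3:**
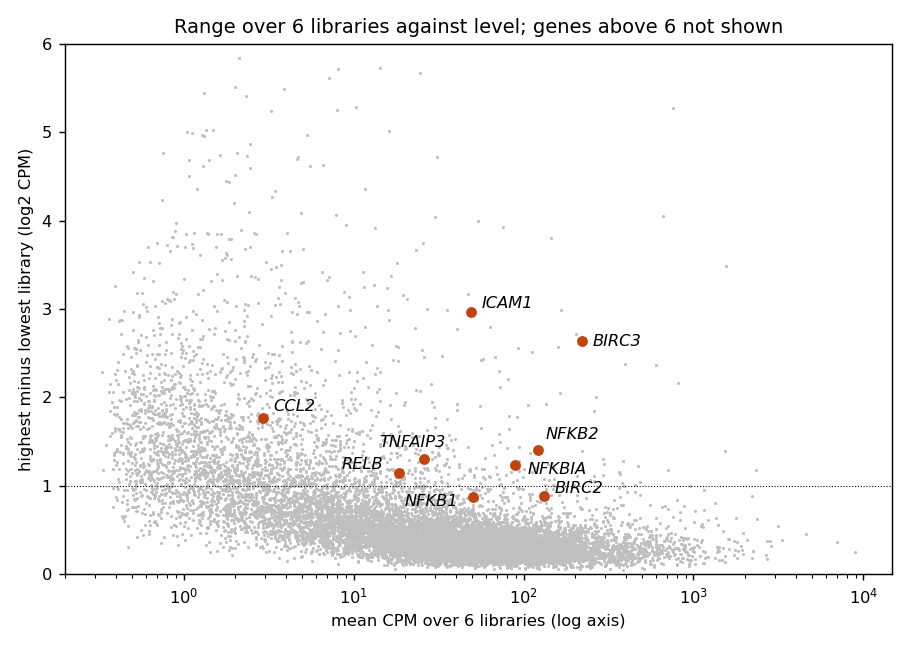
Highest minus lowest library (log2 CPM) against mean CPM over the 6 libraries (log axis), with the 9 NF-kappaB genes in red over all tested genes in grey and a dotted line at 1. ICAM1 at 2.97 and BIRC3 at 2.64 lie far above most genes of their level, and NFKB1 and BIRC2, both at 0.88, lie below the line; 20 genes with a range above 6 are not shown.

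By this range ICAM1 stood at 46 and BIRC3 at 54 among the 9584 genes that averaged 10 CPM or more, a description of the spread for which they were chosen. NFKB2 stood at 174, TNFAIP3 at 205, NFKBIA at 225, RELB at 281, BIRC2 at 526 and NFKB1 at 530. The genes most like BIRC3 over the 6 libraries, outside the 10, were CCN2, a matrix protein known as a target of YAP1 (mean absolute difference 0.308 on the log2 scale), the sodium channel SCN9A (0.350), TEX15 (0.356), the zinc finger gene ZNF860 (0.358), MICB, a ligand of a natural killer cell receptor (0.359), and TCERG1L (0.370). For ICAM1 they included SCN9A (0.281), the desmosome protein DSP (0.285), the netrin receptor UNC5D (0.342), the complexin CPLX4 (0.363) and CCN2 (0.417). CCN2 had 20.1, 18.9 and 7.57 CPM in distal 1, 2 and 3, against 16.4, 5.73 and 12.9 CPM in proximal 1, 2 and 3. DSP had 35.8, 35.7 and 12.0 CPM in the distal and 32.8, 6.42 and 32.3 CPM in the proximal libraries. These genes share with ICAM1 a low value in proximal 2, and for CCN2, DSP, UNC5D and CPLX4 it was the lowest of the 6.

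The rest of the pathway did not pass the test either. The 7 NF-kappaB lists held 151 genes, of which 130 were in the table and 98 were tested, 89 of them outside the 10. Of those 89, 0 passed by edgeR's quasi-likelihood test, with 38 higher and 51 lower values in distal tumour and a median log2 fold change of -0.04, compared with 0.00 over all genes. At an unadjusted p under 0.05 there were 2 of the 89, beside 1.33% of all genes. Both had lower values in distal tumour and are named after their values were seen: CYLD, a deubiquitinase that restrains the pathway, at -0.34 (SE 0.14), and TRAF3, an adapter that keeps MAP3K14 low, at -0.32 (SE 0.14), each with an adjusted p of 0.9997 by edgeR's quasi-likelihood test. Distal 3 was the lowest library for 46 of the 89 (51.7%), beside 25.4% of all genes, and the range was above 1 on the log2 scale for 24 (27.0%), beside 16.9%.

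Most genes of activating ligands were barely read, whereas most receptor genes were read well enough to test. Of 18 activating ligands, 13 were in the table and 3 were tested, and TNF and IL1B had at most 3 reads in any library. TNFSF12, the one tested ligand that reached 5 CPM in a library, had 5.33, 6.67 and 5.37 CPM in the distal and 5.65, 7.30 and 5.30 CPM in the proximal libraries. Of 24 receptors 18 were tested, with 8 higher and 10 lower values and 9 lowest in distal 3, beside 25.4% of all genes. FAS, a death receptor, had the widest range of those read at 5 CPM or more, with 179, 168 and 61.7 CPM in the distal and 160, 256 and 154 CPM in the proximal libraries, while IL1R1, a receptor of interleukin-1, had 12.5 CPM in distal 3 and 19.2 to 24.7 CPM in the other 5.

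Among inhibitors and feedback genes 15 of 16 were tested. Of the 15, 10 were lowest in distal 3, NFKBIA and TNFAIP3 among them, beside 25.4% of all genes. BCL3, a nuclear partner of the NFKB1 and NFKB2 products, had 8.86, 7.33 and 4.88 CPM in the distal and 5.26, 6.46 and 8.04 CPM in the proximal libraries. Of 28 kinase and adapter genes 27 were tested, 11 with higher and 16 with lower values. Lowest in distal 3 were 11 of them, BIRC2 and BIRC3 included, beside the same 25.4%. IKBKE, an IkappaB kinase relative, had 3.48 CPM in distal 3 and 6.42 to 7.68 CPM in the other 5, and MAP3K14, the kinase that BIRC2 and BIRC3 hold down at the protein level, had 20.8, 17.3 and 14.3 CPM in the distal and 17.8, 17.9 and 30.3 CPM in the proximal libraries. XIAP, another member of the inhibitor of apoptosis family, was highest where BIRC3 was lowest, at 77.2, 81.3 and 130 CPM in the distal and 88.5, 99.1 and 85.7 CPM in the proximal libraries.

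Among target chemokines and cytokines 8 of 23 were tested, and 6 of the 8, CCL2 among them, had a range above 1, beside 16.9% of all genes. CXCL10, a chemokine that draws T cells, had 3.35, 9.97 and 1.34 CPM in distal 1, 2 and 3, against 4.33, 0.600 and 4.76 CPM in proximal 1, 2 and 3, so that it too was low in distal 3 and proximal 2. Of the other targets 24 of 39 were tested, and 10, ICAM1 among them, had a range above 1, beside the same 16.9%. CD44, the hyaluronan receptor, had 52.1, 90.1 and 42.3 CPM in the distal and 64.7, 28.5 and 61.3 CPM in the proximal libraries, with its lowest values in those same libraries, and CD83 was lowest in distal 3, at 10.4 CPM. Other known targets were flat, with SOD2, the mitochondrial superoxide dismutase, at 69.8 to 71.3 CPM in the distal and 60.6 to 76.9 CPM in the proximal libraries, and TRAF1 at 9.83 to 11.7 and 9.40 to 11.04 CPM.

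Other stimulus-response genes were counted in the same way. Of 28 tested interferon and antigen presentation genes 23 were lowest in distal 3, beside 25.4% of all genes, HLA-B among them with 221, 197 and 80.2 CPM in the distal and 209, 175 and 236 CPM in the proximal libraries. Of 16 tested immediate early genes 3 were lowest there, a share near that of all genes. KLF2, a transcription factor gene, was one of the 3, at 7.08 CPM beside 10.9 to 15.5 CPM in the other 5 libraries. FOS, an AP-1 subunit, was highest in distal 3, at 13.1 CPM beside 3.70 to 4.90 CPM in the other 5. EGR1, a zinc finger factor, was highest in proximal 3, at 41.2 CPM beside 14.9 to 22.04 CPM.

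**Figure D4:**
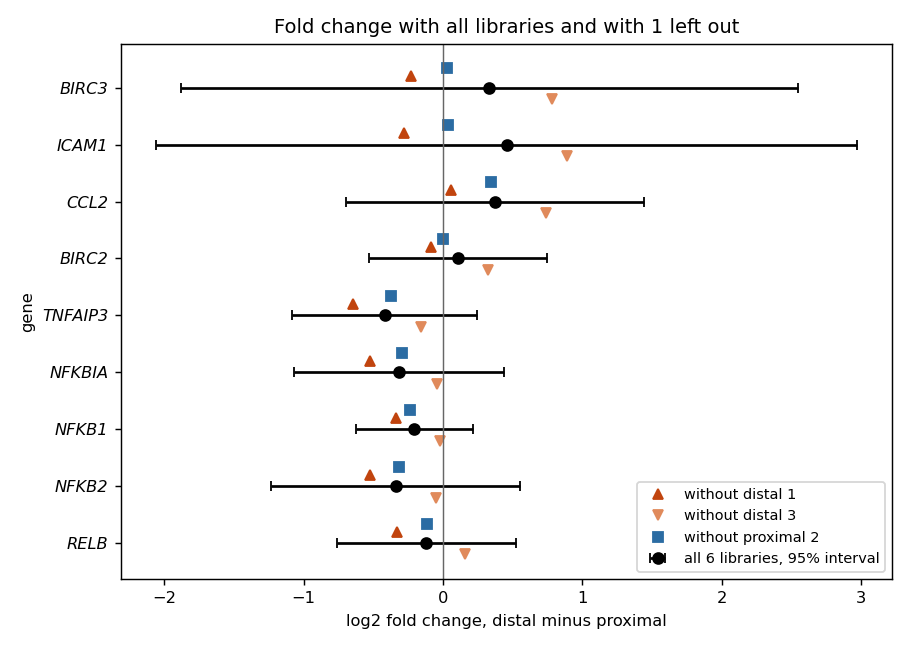
Log2 fold change, distal minus proximal, of 9 NF-kappaB genes with all 6 libraries (black points, 95% intervals as bars) and without distal 1, distal 3 or proximal 2 (coloured marks). All 9 intervals include 0, and without distal 1 the values of BIRC3 (-0.23), ICAM1 (-0.28) and BIRC2 (-0.09) lie below 0.

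The interval of the difference shows how little the 6 libraries can say about the widely spread genes. For ICAM1 it ran from a level 4.17-fold lower to one 7.85-fold higher in distal tumour, and for BIRC3 from 3.68-fold lower to 5.83-fold higher. For NFKB1 it ran from 1.54-fold lower to 1.16-fold higher.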

How the data were processed

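The values are whole-number read counts as the authors deposited them, with gene symbols as row names. The submitters' processing notes name the build GRCh38 and, with no order or role, DESeq2, featureCounts 2.0.1, STAR 2.7.3a, Trimmomatic 0.39 and bcl2fastq. Annotation, strandedness of counting and treatment of reads from the host: not given in the sources used here. Per the labels' protocols, RNA passing an integrity threshold was made into TruSeq poly(A) libraries.

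Counts were analysed in R 4.3.3 with edgeR 4.0.16 (expression filter, TMM scaling, robust quasi-likelihood test on the group alone, Benjamini-Hochberg adjustment over all genes tested). CPM of single genes were computed here with TMM-scaled library sizes, and log2 CPM with a prior count of 2. Sums of cell type markers were scaled by library totals alone. The SE is the size of the log2 fold change over the root of F. Poisson intervals and the floor of 3 reads cover counting error only. The procedure was run on 2 sets of simulated counts, where only the size of the recovered log2 fold change had to match. That check does not cover missed or false calls, and no library that stands apart was simulated. Alternatives were other scalings and filters, DESeq2 1.42.0, limma-voom (limma 3.58.1), the replicate number as a block and libraries left out, the last with the genes tested unchanged; counts of genes by range were added after seeing the data. No pair of libraries was as close as sampling noise allows.

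The members and lists were chosen with earlier results of these data known. From each list the text names up to 3 genes with the widest range among those reaching 5 CPM in a library, and the 6 genes most like BIRC3 and ICAM1 with a mean of at least 5 CPM. One gene that this rule names is not reported here. RELA, YAP1, CYLD, TRAF3, SOD2, TRAF1, HLA-B and the genes with fewer than 5 CPM, and the statements on distal 3 and proximal 2, were chosen after their values were seen.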

Additional observations from a re-analysis of the deposited data

How the results depend on the processing

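None of the 9 tested genes was called under any of the 16 alternatives. Over all genes edgeR called 0, and 0 to 1 with 1 library left out; DESeq2 called 1 and the other alternatives 0. The log2 fold changes of TNFAIP3 and CCL2 kept their sign throughout. With 1 library left out, BIRC3 ranged from -0.23 to 0.78, ICAM1 from -0.28 to 0.89, BIRC2 from -0.089 to 0.32 and RELB from -0.33 to 0.16. RELB was also at 0.089 by limma-voom with sample weights. Without distal 3 and proximal 3 together, RELB was at 0.25, NFKB1 at 0.092, NFKB2 at 0.061 and NFKBIA at 0.030, and 2 of the 9 genes, BIRC3 and ICAM1, had a range above 1. The ratio of highest to lowest library was 3.92 for BIRC3 without distal 3 and 4.53 without distal 1, and 4.27 for ICAM1 without distal 1. The cause was not tested. Same-numbered libraries correlated at 0.618, -0.125 and 0.39 in their deviations from the group means, and distal 2 correlated best with proximal 1 (0.222). Distal 1 and proximal 1 were also the closest pair of libraries, with a mean chi-square per gene of 5.8, beside 8.05 for distal 1 and distal 2. Deviations within a group depend on each other, so these correlations cannot decide whether the numbers pair the samples. The main test took the samples as unpaired. With the replicate number as a block, BIRC3 was at 0.14 and ICAM1 at 0.43 and 0 genes were called. Depth limits CX3CL1, the ligands and CCL2.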
